A study of Mus musculus with 12 samples.

Results

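A set of genes that write and erase repressive marks on chromatin was described in RNA-seq of mouse pre-T cells. They are the DNA methyltransferases Dnmt1, Dnmt3a and Dnmt3b, the maintenance cofactor Uhrf1, the methylcytosine dioxygenases Tet1, Tet2 and Tet3, and Ezh2, Eed and Suz12, the core of Polycomb repressive complex 2 (PRC2). The set was chosen by gene symbol for function, not by measured level, though with earlier results of these data known. Its 10 members stand among 43629 genes in the count table. All 10 members passed the filter on low counts, with 522 to 49781 reads per member and library.

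After each round of DNA replication, UHRF1 recognises hemimethylated CpG sites and recruits DNMT1, which copies the mark to the new strand. DNMT3A and DNMT3B place new methyl groups, and TET enzymes oxidise methylcytosine, a step toward its removal. PRC2 methylates lysine 27 of histone H3 through its catalytic subunit EZH2 (or the paralogue EZH1), with EED and SUZ12 needed for activity, and in thymocytes these systems are known for holding alternative lineage genes silent.

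The RNA came from thymic pre-T cells of C57BL/6 mice, purified by flow cytometry, in 3 groups of 4 biological replicates. DCKO DN3 cells (DCKO below) carried floxed Zfp36l1 and Zfp36l2 alleles (Zfp36l1fl/fl, Zfp36l2fl/fl) together with CD2cre, a Cre recombinase driven by CD2 regulatory sequence, which acts in lymphoid cells generally rather than in this stage alone. Control DN3b cells and Control DN3a cells (DN3b and DN3a below) carried the same floxed alleles of both genes without Cre, so no group had unmodified alleles. DN3a and DN3b are successive stages of CD4- CD8- thymocytes, before and after beta selection, the checkpoint that tests a rearranged T cell receptor beta chain. The DCKO label names DN3 without a or b. In comparisons of DCKO with a control group, genotype and the mix of stages therefore cannot be told apart. Zfp36l1 and Zfp36l2 encode RNA-binding proteins of the ZFP36 family, which bind AU-rich elements. The age of the mice is not given in the sources used here.

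Libraries held 30401159 to 41258922 counts in DCKO, 32359182 to 41664096 in DN3b and 28479157 to 45975678 in DN3a. Levels below are CPM, a gene's counts scaled to a common library size after TMM normalization. Zfp36l1 lay at 1.64 to 3.8 CPM in DCKO, 9.63 to 23.3 CPM in DN3b and 27.1 to 43.9 CPM in DN3a, and Zfp36l2 at 45.4 to 87.9 CPM in DCKO, 287 to 467 CPM in DN3b and 341 to 685 CPM in DN3a. The 11 pre-T cell markers were detected in every group. In DCKO library 1 a single feature, ENSMUSG00000045999, took 9.02% of the counts. It took 2.61% in DN3a library 4, 2.21% in DN3b library 1, 1.48% in DCKO library 4 and at most 0.52% in each remaining library. Summed B cell markers lay at 18.7 to 24.7 CPM in DCKO, 9.76 to 32.1 CPM in DN3b and 42.7 to 58.4 CPM in DN3a, and summed myeloid markers at 11.1 to 21.5 CPM in DCKO, 4.85 to 13.1 CPM in DN3b and 23.4 to 33.5 CPM in DN3a. Thymic stroma markers summed to 105 to 212 CPM in DCKO, 82.9 to 169 CPM in DN3b and 195 to 271 CPM in DN3a. Of 9 such markers 6 reached 10 counts in each group, with Foxn1 and Krt5 at 0 in DN3a. Of 6 B cell markers 4 reached 10 counts in DCKO and in DN3b, where Pax5 was at 0, and 5 in DN3a; of 6 myeloid markers 4 did in each group, with Elane at 0 in DN3b and both Mpo and Elane at 0 in DN3a. NK cell markers summed to 278 to 481 CPM in DCKO, 404 to 576 CPM in DN3b and 152 to 271 CPM in DN3a. Of 5 such markers 2 reached 10 counts in DCKO, 3 in DN3b, where Ncr1 was at 0, and 4 in DN3a. In these bulk samples fewer cells of a type and less RNA per cell cannot be told apart.

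The promoters of genes that were higher in both DCKO and DN3b than in DN3a are shown because 4 of these 5 genes (Dnmt1, Uhrf1, Ezh2 and Suz12) hold an E2F-type octamer near a start site. E2F factors bind such letters in promoters of many replication genes. The search used TTTGGCGC, TTTCCCGC, TTTGCCGC and TTTCGCGC on both strands of RefSeq windows (GRCm38.p6) running from 250 bases before to 50 bases after a start site. All 10 members had a window, 15 windows in all. The letters stand in capitals below, each sequence 5′ to 3′ on the gene's own strand.

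Dnmt1, chr9:20952574-20952873, minus strand: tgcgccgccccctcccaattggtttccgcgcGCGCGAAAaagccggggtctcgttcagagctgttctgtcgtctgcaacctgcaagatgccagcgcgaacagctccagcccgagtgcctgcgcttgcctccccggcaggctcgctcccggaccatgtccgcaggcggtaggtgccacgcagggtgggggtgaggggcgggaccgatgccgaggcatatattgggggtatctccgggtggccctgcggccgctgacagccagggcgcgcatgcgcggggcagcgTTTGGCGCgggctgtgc

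Uhrf1, chr17:56304063-56304362, plus strand: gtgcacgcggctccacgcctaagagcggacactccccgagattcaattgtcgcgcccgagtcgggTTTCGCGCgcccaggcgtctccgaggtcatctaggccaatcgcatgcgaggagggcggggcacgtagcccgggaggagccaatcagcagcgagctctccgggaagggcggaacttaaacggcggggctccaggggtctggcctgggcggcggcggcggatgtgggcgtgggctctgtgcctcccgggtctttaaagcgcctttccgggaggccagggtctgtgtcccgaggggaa

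Ezh2, chr6:47594981-47595280, minus strand: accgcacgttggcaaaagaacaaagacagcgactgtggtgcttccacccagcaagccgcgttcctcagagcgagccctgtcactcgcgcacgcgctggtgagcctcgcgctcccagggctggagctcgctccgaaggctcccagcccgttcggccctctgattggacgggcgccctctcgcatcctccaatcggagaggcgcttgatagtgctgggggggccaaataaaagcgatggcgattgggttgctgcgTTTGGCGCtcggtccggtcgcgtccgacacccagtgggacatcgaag

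Suz12, chr11:79992856-79993155, plus strand: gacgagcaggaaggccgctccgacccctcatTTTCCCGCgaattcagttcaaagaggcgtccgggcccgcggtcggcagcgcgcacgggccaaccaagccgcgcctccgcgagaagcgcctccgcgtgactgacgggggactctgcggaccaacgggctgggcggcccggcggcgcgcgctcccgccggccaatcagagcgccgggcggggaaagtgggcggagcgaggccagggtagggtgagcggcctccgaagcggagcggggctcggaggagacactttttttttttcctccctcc

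In the Dnmt1 window GCGCGAAA starts 219 bases before the start site and TTTGGCGC at transcribed base 34. The Uhrf1 match starts 185 bases before the start site, the Suz12 match 219 bases before it, and the Ezh2 match at transcribed base 4. The window of Eed, the other gene that was higher in both, held none of these letters, and neither did any window of the 5 remaining members. Dnmt1 and Uhrf1 have further windows that lack the letters. Of 32851 mouse promoter windows 2.26% held the letters, and of 27025 genes 2.6% held them in any window. These shares were not matched for CG content or for expression, and each octamer itself holds CG. The printed windows held 33 (Dnmt1), 33 (Uhrf1), 31 (Ezh2) and 41 (Suz12) CG, against a median of 7 over all windows. Member windows without the letters held from 2 (Dnmt1) to 57 (Tet2). A match describes the sequence and is not a measured binding site.

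The letters TATTTAT, the DNA form of the heptamer that ZFP36 family proteins bind, were sought in the 3′ UTR of each member's principal GENCODE M21 transcript. They stood in 5 of 10 members, with 12 sites in all: Tet3 had 4, Tet1 3, Suz12 2, Tet2 2 and Dnmt3a 1. Among 11731 tested genes 27.9% held the heptamer, at a median 3′ UTR length of 1007 bases. The members with it have 3′ UTRs of 1933 to 7955 bases, and those without it 283 to 1331 bases. The sites of Tet1, which fell in all 3 comparisons below, and of Suz12, which was higher in DCKO and in DN3b than in DN3a, are printed on the gene's strand (GRCm38) with the heptamer in capitals.

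Tet1, chr10:62810740-62810768, minus strand: cttcagttaggTATTTATttgttagtgta

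Tet1, chr10:62807560-62807588, minus strand: ggttaataattTATTTATtccttttctac

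Tet1, chr10:62806367-62806395, minus strand: tctcaaatcctTATTTATgcatcaaagct

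Suz12, chr11:80033271-80033299, plus strand: ttcatattcttTATTTATaaaggatcaat

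Suz12, chr11:80033901-80033929, plus strand: ccctttggttcTATTTATaaaaaaaaaaa

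Tests below are edgeR's quasi-likelihood tests from 1 fit over all 12 libraries, with p-values adjusted by Benjamini-Hochberg over 13944 genes and a threshold of 0.05. A fold change is given on the log2 scale with its standard error (SE). Against DN3a, 5 members rose in DCKO (Dnmt1, Uhrf1, Ezh2, Eed, Suz12), 2 fell (Tet1, Tet2) and 3 were not called (Dnmt3a, Dnmt3b, Tet3). In that comparison 60.2% of all genes were called, 30.7% higher and 29.5% lower. The libraries of DCKO and DN3a did not overlap for 7 members, the 5 higher and the 2 lower ones, and for 54.9% of all genes, 27.8% higher and 27.1% lower. Against DN3b, Tet1 fell in DCKO and the other 9 members were not called, with 18.9% of all genes called, 10.3% higher and 8.58% lower. These 2635 genes became 1730 without DCKO library 1, 1654 without DCKO library 2, 1670 without DN3b library 2 and 1601 without DN3b library 3, while Tet1 was called in each case. Tet1 was also the 1 member whose libraries did not overlap between DCKO and DN3b, as held for 20.9% of all genes, 11% higher and 9.87% lower. In DN3b against DN3a the members split as in DCKO against DN3a, 5 higher, 2 lower and 3 not called, where 52.6% of all genes were called, 27.4% higher and 25.2% lower. Libraries of DN3b and DN3a did not overlap for 6 members, these 7 without Ezh2, and for 47.9% of all genes, 24.8% higher and 23% lower. Upper quartile scaling moved the median log2 fold change of all genes by -0.22, -0.08 and -0.15 in DCKO against DN3a, DCKO against DN3b and DN3b against DN3a. It gave 3119 genes higher and 5528 lower in DCKO against DN3a (4275 and 4116 with TMM), 1051 and 1644 in DCKO against DN3b (1438 and 1197), and 3021 and 4536 in DN3b against DN3a (3815 and 3519). The 3 comparisons share their libraries in pairs. The median log2 fold change over the 10 members was 0.34 for DCKO against DN3a, -0.05 for DCKO against DN3b and 0.40 for DN3b against DN3a, and the median over all genes was -0.04, -0.02 and -0.02 in the same comparisons. The authors' deposited table for each comparison called 7, 1 and 7 members.

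**Figure D1:**
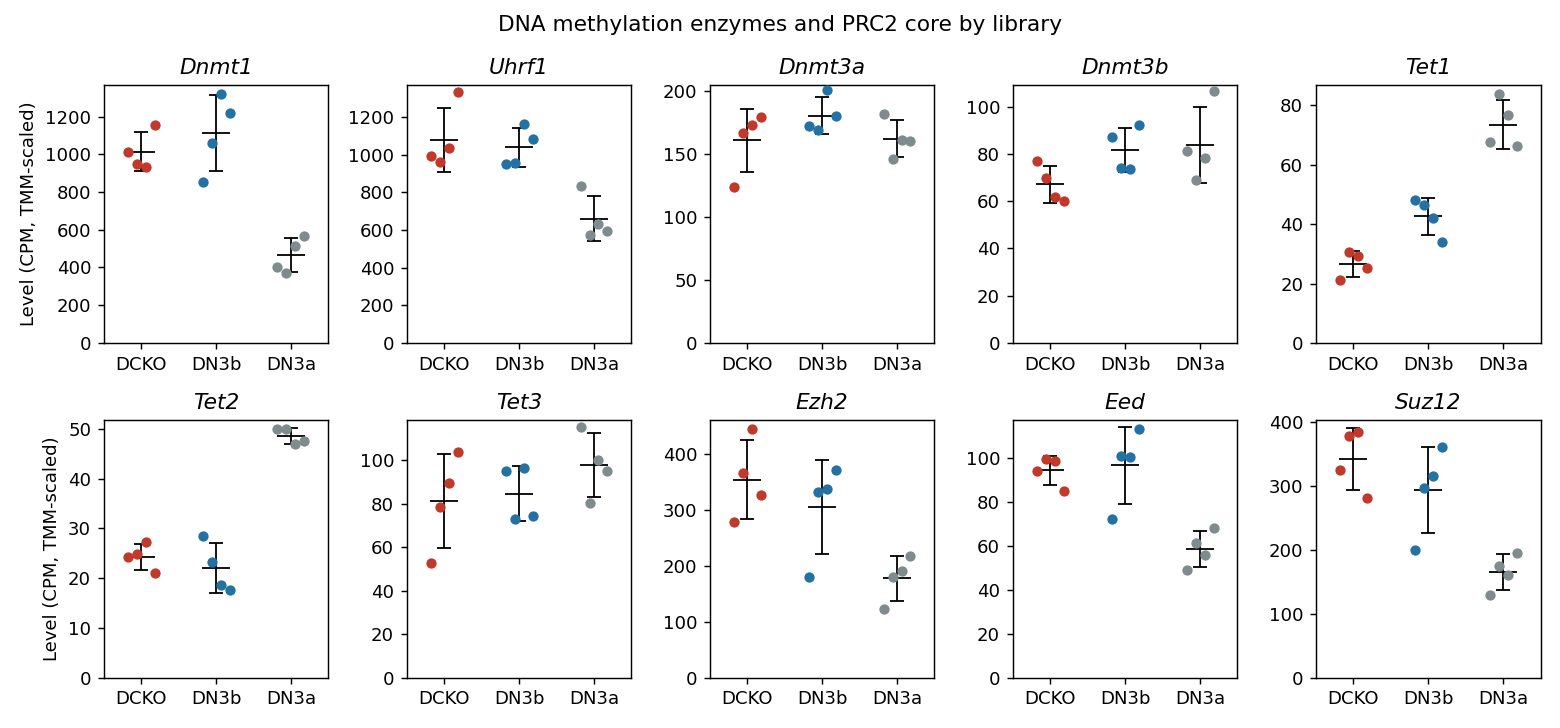
Level of each member in CPM (TMM-scaled, linear axis from 0) by group, 1 point per library, with the mean and SD over 4 libraries drawn as bars. Dnmt1, Uhrf1, Eed, Suz12, Tet1 and Tet2 separate DN3a from the other groups, and the DCKO points of Tet1, at 21.0 to 30.7 CPM, lie below those of both control groups.

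Among the maintenance enzymes, Dnmt1 (chr9:20907209-20959888, minus strand) stood at 1015, 949.9, 932 and 1158 CPM in the 4 DCKO libraries. It was 855, 1058, 1321 and 1219 CPM in DN3b and 403, 373, 516 and 565 CPM in DN3a. Every DCKO and every DN3b library lay above every DN3a library, while DCKO and DN3b overlapped. Dnmt1 rose by 1.13 ± 0.16 (SE) in DCKO against DN3a, a 2.18-fold difference (edgeR adjusted p = 8.1e-05). In DN3b against DN3a it rose by 1.26 ± 0.16 (edgeR adjusted p = 7.9e-05). Between DCKO and DN3b the log2 fold change was -0.14 ± 0.16 (edgeR adjusted p = 0.59).

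Uhrf1 (chr17:56303321-56323486, plus strand) was 992, 962, 1038 and 1332 CPM in DCKO. It was 952, 959, 1162 and 1084 CPM in DN3b and 836, 575, 633 and 595 CPM in DN3a. The DN3a libraries were the lowest, with library 1 well above the other DN3a libraries and still below every DCKO and DN3b library. Uhrf1 rose by 0.71 ± 0.14 in DCKO against DN3a (edgeR adjusted p = 0.00097) and by 0.65 ± 0.14 in DN3b against DN3a (edgeR adjusted p = 0.0023). For DCKO against DN3b the value was 0.06 ± 0.14 (edgeR adjusted p = 0.82).

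DNMT1 and UHRF1 work with a remodeller and with replication factors. A list of 7 tested genes held such partners and Dnmt3l, a relative of the de novo enzymes. Of these, 5 rose in DCKO against DN3a with none lower (median log2 fold change 0.83, all genes -0.04; 5 to 6 rose and 0 to 1 fell with single libraries left out), none was called by edgeR against DN3b (2 at an unadjusted p under 0.05, and none by DESeq2 or limma), and 5 rose and 1 fell in DN3b against DN3a (median 0.98). Hells, the remodeller needed for methylation of packed DNA, stood at 436 ± 64.5 CPM in DCKO, 337 ± 94.8 in DN3b and 116 ± 36.6 in DN3a (SD, n = 4), and rose by 1.92 ± 0.24 in DCKO against DN3a (edgeR adjusted p = 3.3e-05). Cdca7, which targets HELLS to chromatin, was 707 ± 59.7 CPM in DCKO, 780 ± 66.8 in DN3b and 396 ± 37.5 in DN3a, and rose by 0.83 ± 0.11 in DCKO against DN3a (edgeR adjusted p = 3.3e-05). Pcna, the sliding clamp of replication, and Pclaf, a PCNA-bound protein through which DNMT1 is recruited, rose by 1.85 ± 0.22 and 2.51 ± 0.40 in the same comparison (edgeR adjusted p = 2.1e-05 and 0.00016). The gene of this list that fell in DN3b was Dnmt3l, a catalytically inactive DNMT3 relative, which was under 1 CPM in all groups. Beside this and the later lists stand the shares of all genes called. They were 60.2% in DCKO against DN3a, 18.9% in DCKO against DN3b and 52.6% in DN3b against DN3a.

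The de novo enzymes were not called in any of the 3 comparisons. Dnmt3a (chr12:3806007-3914443, plus strand) was 124, 166, 173 and 179 CPM in DCKO, 172, 169, 201 and 179.6 CPM in DN3b, and 182, 146, 161 and 159.7 CPM in DN3a. All 3 groups overlapped, and DCKO library 1 was the lowest of the 12. Its log2 fold change was -0.01 ± 0.12 for DCKO against DN3a, -0.17 ± 0.12 for DCKO against DN3b and 0.15 ± 0.12 for DN3b against DN3a (edgeR adjusted p = 0.93, 0.35 and 0.29).

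Dnmt3b (chr2:153649450-153687730, plus strand) was 77.1, 69.8, 61.8 and 60.2 CPM in DCKO, 87.2, 74.0, 73.4 and 92.3 CPM in DN3b, and 81.2, 69.0, 78.3 and 107 CPM in DN3a. DCKO libraries 3 and 4 lay below every control library and DCKO libraries 1 and 2 among them. Its log2 fold change was -0.32 ± 0.14 in DCKO against DN3a (edgeR adjusted p = 0.062) and -0.28 ± 0.14 in DCKO against DN3b (edgeR adjusted p = 0.17). The first of these lay close to the threshold: without DCKO library 1 it was -0.42 (edgeR adjusted p = 0.030), without DN3a library 2 it was -0.40 (0.0275), and without DN3b library 2, 3 or 4 it was -0.35 (0.0485, 0.0467 and 0.0394). With upper quartile scaling it was -0.54 (edgeR adjusted p = 0.0026). Between DN3b and DN3a the value was -0.04 ± 0.14 (edgeR adjusted p = 0.84).

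Tet1 (chr10:62804570-62908996, minus strand) was 21.0, 30.7, 29.2 and 25.4 CPM in DCKO. It was 48.1, 46.4, 42.1 and 34.1 CPM in DN3b and 67.6, 83.7, 76.6 and 66.1 CPM in DN3a. No 2 groups overlapped, and DCKO was the lowest. Tet1 fell by 1.47 on the log2 scale (SE 0.14) in DCKO against DN3a, to a 2.76-fold lower level (edgeR adjusted p = 6.8e-06). It fell by 0.68 (SE 0.14), a 1.6-fold lower level, in DCKO against DN3b (edgeR adjusted p = 0.0056). In DN3b against DN3a it fell by 0.78 (SE 0.14; edgeR adjusted p = 0.00062). Leaving out any single library kept the fall against DN3b between -0.79 and -0.61 on the log2 scale, with adjusted p from 0.0025 to 0.017.

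Tet2 (chr3:133463679-133545139, minus strand) was 24.2, 24.9, 27.3 and 21.0 CPM in DCKO. It was 28.5, 23.2, 18.6 and 17.6 CPM in DN3b and 49.9, 49.96, 47.0 and 47.5 CPM in DN3a. The DN3a libraries lay within a narrow band above all others, and DCKO and DN3b overlapped. Tet2 fell by 0.998 (SE 0.14) in DCKO against DN3a and by 1.14 (SE 0.15) in DN3b against DN3a (edgeR adjusted p = 8.6e-05 and 7.2e-05). Between DCKO and DN3b the log2 fold change was 0.15 ± 0.14 (edgeR adjusted p = 0.51). The summed B cell and myeloid markers of every DN3a library, given above, also exceeded those of every DCKO and DN3b library. Of 8 marker lists 5 separated DCKO from DN3a and 6 separated DN3b from DN3a without overlap, some higher and some lower. The part of any of these lists in the Tet1 and Tet2 values was not tested. Of 8 marker lists 3 separated DCKO from DN3b, where Tet1 fell, with no overlap between libraries. Summed pre-T cell markers were 7072 to 11940 CPM in DCKO, 4111 to 5978 CPM in DN3b and 6283 to 8862 CPM in DN3a. Markers of later thymocytes summed to 109 to 129 CPM in DCKO, 200.3 to 223 CPM in DN3b and 159 to 181 CPM in DN3a, and those of dendritic cells to 11.7 to 18.5 CPM in DCKO, 7.06 to 8.86 CPM in DN3b and 6.47 to 10.3 CPM in DN3a. Of 5 dendritic cell markers 3 reached 10 counts in DCKO, where Siglech was at 0, and 2 in DN3b and in DN3a. The other 5 lists overlapped between DCKO and DN3b, and the part of any of these lists in the Tet1 fall was not tested.

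Tet3 (chr6:83362373-83459084, minus strand) was 52.7, 78.6, 89.4 and 104 CPM in DCKO, 95.1, 73.0, 96.3 and 74.2 CPM in DN3b, and 115, 80.2, 100.1 and 95.0 CPM in DN3a. All groups overlapped, and DCKO had both the lowest library, library 1, and one above all of DN3b. Its log2 fold change was -0.27 ± 0.18 in DCKO against DN3a, -0.06 ± 0.18 in DCKO against DN3b and -0.21 ± 0.18 in DN3b against DN3a (edgeR adjusted p = 0.225, 0.85 and 0.36). With the replicate number as a block, which pairs the control libraries, Tet3 was called lower in DN3b against DN3a (-0.23, edgeR adjusted p = 0.014), and with upper quartile scaling it was called lower in DCKO against DN3a (-0.49, edgeR adjusted p = 0.035).

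Ratios of related genes were formed within each library, where scaling cancels. They use the same counts as the tests above. The Tet1 to Tet2 comparison is therefore not separate evidence that these genes moved differently. The log2 ratio of Tet1 to Tet2 counts was -0.20, 0.30, 0.10 and 0.27 in DCKO, 0.75, 1.003, 1.18 and 0.95 in DN3b, and 0.44, 0.74, 0.70 and 0.48 in DN3a. The 3 groups did not overlap: DCKO was lowest and DN3b highest. Over 30 ratio comparisons tested by an exact two-sided permutation test over 70 splits of 4 against 4, the smallest p possible is 0.029. The Tet1 to Tet2 differences (-0.47 for DCKO against DN3a, -0.85 for DCKO against DN3b, 0.38 for DN3b against DN3a) each reached it, and the adjusted exact p of each was 0.086, so no ratio comparison passed 0.05. The log2 ratio of Tet3 to Tet2 averaged 1.70 ± 0.48 in DCKO, 1.96 ± 0.33 in DN3b and 0.995 ± 0.23 in DN3a (SD, n = 4). DN3b lay above DN3a in every library (exact p = 0.029, adjusted 0.086), and DCKO overlapped DN3a (exact p = 0.057, adjusted 0.12).

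**Figure D2:**
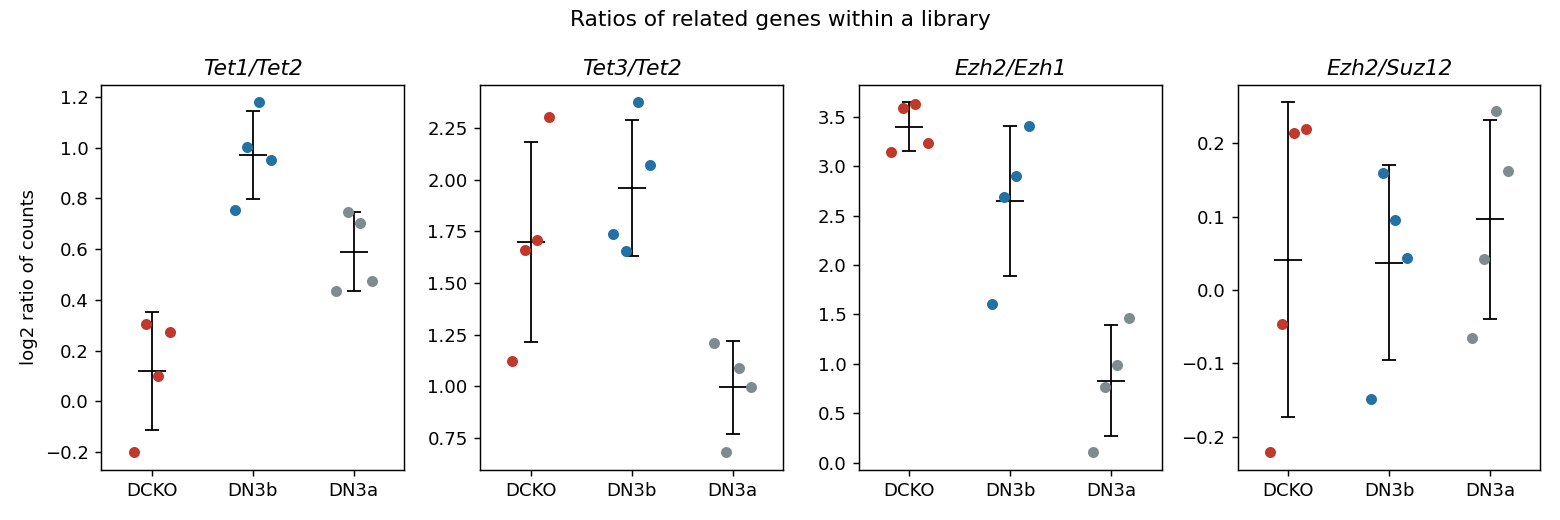
Log2 ratio of counts of 2 genes within a library, by group, 1 point per library, with the mean and SD over 4 libraries. Tet1/Tet2 was lowest in DCKO (-0.20 to 0.30), Ezh2/Ezh1 in DCKO (3.14 to 3.63) overlapped DN3b (1.61 to 3.41) and both lay above DN3a (0.11 to 1.46), and Ezh2/Suz12 overlapped in all groups.

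Ezh2 (chr6:47530139-47595341, minus strand), the catalytic subunit, was 279, 367, 446 and 328 CPM in DCKO. It was 181, 332, 337 and 372 CPM in DN3b and 123, 180.0, 191 and 219 CPM in DN3a. All DCKO libraries lay above DN3a, while DN3b library 1 lay within the DN3a range. Ezh2 rose by 0.99 ± 0.23 in DCKO against DN3a, a 1.99-fold difference (edgeR adjusted p = 0.0022), and by 0.78 ± 0.23 in DN3b against DN3a (edgeR adjusted p = 0.012). Between DCKO and DN3b the value was 0.22 ± 0.23 (edgeR adjusted p = 0.54).

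Suz12 (chr11:79993106-80034123, plus strand), the scaffold subunit, was 325, 379, 385 and 282 CPM in DCKO. It was 201, 297, 316 and 361 CPM in DN3b and 129, 175, 161 and 195 CPM in DN3a. DN3b library 1 was again the lowest of its group, here just above the highest DN3a library. Suz12 rose by 1.05 ± 0.18 in DCKO against DN3a (edgeR adjusted p = 0.00026) and by 0.83 ± 0.18 in DN3b against DN3a (edgeR adjusted p = 0.0019). For DCKO against DN3b the value was 0.22 ± 0.18 (edgeR adjusted p = 0.40).

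Eed (chr7:89954654-89980983, minus strand), which reads trimethylated lysine 27, was 94.1, 99.6, 98.3 and 84.7 CPM in DCKO. It was 71.9, 100.51, 100.46 and 113 CPM in DN3b and 49.0, 61.3, 55.8 and 68.0 CPM in DN3a. The DN3a libraries were below all others, with DN3b library 1 next above them. Eed rose by 0.69 ± 0.14 in DCKO against DN3a (edgeR adjusted p = 0.00091) and by 0.72 ± 0.14 in DN3b against DN3a (edgeR adjusted p = 0.00090). For DCKO against DN3b the value was -0.04 ± 0.14 (edgeR adjusted p = 0.88). The log2 ratio of Ezh2 to Suz12 counts averaged 0.04 ± 0.21 in DCKO, 0.04 ± 0.13 in DN3b and 0.10 ± 0.14 in DN3a, with overlap in every pair of groups (exact permutation p = 0.69, 1.0 and 0.54).

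**Figure D3:**
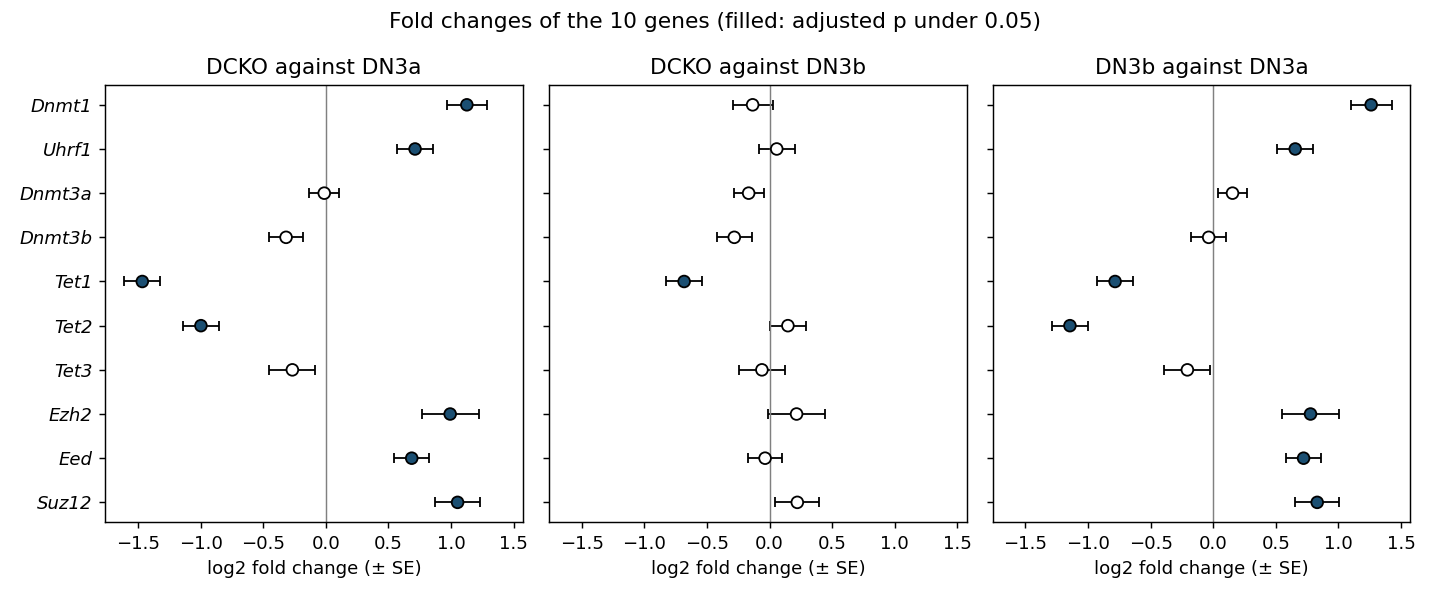
Log2 fold change of each member with its SE in the 3 comparisons (horizontal axis, log2 scale), filled where the edgeR adjusted p was under 0.05. In DCKO against DN3b only Tet1, at -0.68, is filled.

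The partners of PRC2 moved in both directions. Of 9 tested partner genes, 6 rose and 3 fell in DCKO against DN3a (median log2 fold change 0.59), 2 fell and 7 were not called in DCKO against DN3b (median -0.20), and 4 rose and 3 fell in DN3b against DN3a (median 0.25). Ezh1, the alternative catalytic subunit, fell where Ezh2 rose. It was 31.5, 30.4, 36.0 and 34.7 CPM in DCKO, 59.3, 51.5, 45.2 and 34.9 CPM in DN3b and 115, 106, 96.1 and 79.4 CPM in DN3a. The control groups did not overlap each other, and DCKO overlapped only DN3b library 4. Ezh1 fell by 1.58 (SE 0.16) in DCKO against DN3a (edgeR adjusted p = 7.4e-06) and by 1.05 (SE 0.16) in DN3b against DN3a (edgeR adjusted p = 0.00017).

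Against DN3b, Ezh1 fell by 0.53 (SE 0.15) in DCKO (edgeR adjusted p = 0.032). That call was lost without DCKO library 1 (edgeR adjusted p = 0.075) or 2 (0.083) and without DN3b library 1 (0.083), 2 (0.074) or 3 (0.051). The log2 ratio of Ezh2 to Ezh1 counts was 3.14, 3.59, 3.63 and 3.24 in DCKO, 1.61, 2.69, 2.90 and 3.41 in DN3b, and 0.11, 0.77, 0.99 and 1.46 in DN3a. DCKO and DN3b each lay above DN3a in every library, by 2.57 and 1.82 on average (exact permutation p = 0.029, adjusted 0.086, for each). DCKO exceeded DN3b by 0.75 with overlap (exact permutation p = 0.086, adjusted 0.16).

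Rbbp4 and Rbbp7, which encode histone-binding subunits shared with other complexes, rose by 0.99 ± 0.15 and 1.08 ± 0.17 in DCKO against DN3a (edgeR adjusted p = 0.00015 and 0.00018). Phf19, a Polycomb-like subunit that helps PRC2 reach its targets, was 14.3, 14.4, 10.8 and 9.22 CPM in DCKO, 15.9, 22.1, 27.7 and 30.9 CPM in DN3b and 2.21, 3.26, 5.28 and 6.69 CPM in DN3a. The groups did not overlap, with DCKO between the controls. Phf19 rose by 1.48 ± 0.31 in DCKO against DN3a (edgeR adjusted p = 0.0013) and by 2.47 ± 0.32 in DN3b against DN3a (edgeR adjusted p = 8.0e-05). It fell by 0.99 (SE 0.30) in DCKO against DN3b (edgeR adjusted p = 0.038). Without DCKO library 1, 2, 3 or 4 the log2 fold change was -1.095, -1.10, -0.96 and -0.87, and the call was lost (edgeR adjusted p = 0.060, 0.057, 0.088 and 0.076). Without DN3b library 2, 3 or 4 it was -1.05, -0.94 and -0.87, also with no call (0.061, 0.088 and 0.072).

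Jarid2, a cofactor that recruits PRC2, fell by 0.67 (SE 0.11) in DCKO against DN3a, and Phf1, another Polycomb-like subunit, by 1.63 (SE 0.27) (edgeR adjusted p = 0.00018 and 0.00026). Aebp2, which with Jarid2 defines a PRC2 subtype, rose by 0.59 ± 0.13 in DCKO against DN3a (edgeR adjusted p = 0.0014). In DN3b against DN3a its value was 0.25 ± 0.13 (edgeR adjusted p = 0.11), called with the replicate block (0.23, edgeR adjusted p = 0.0055), without DN3b library 1 (0.34, 0.034) and without DN3a library 4 (0.35, 0.040). Mtf2, a further Polycomb-like subunit, was 744 ± 36.4 CPM in DCKO and 618 ± 73.5 CPM in DN3a (SD, n = 4), and the call of its rise of 0.27 ± 0.11 (edgeR adjusted p = 0.048) was lost in 17 of 22 alternative settings, with adjusted p from 0.023 to 0.76. Those settings include leaving out DCKO library 1, 2 or 3 (0.13, 0.12 and 0.15), DN3b library 2, 3 or 4 (0.097, 0.099 and 0.074), or DN3a library 1, 3 or 4 (0.15, 0.12 and 0.058).

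**Figure D4:**
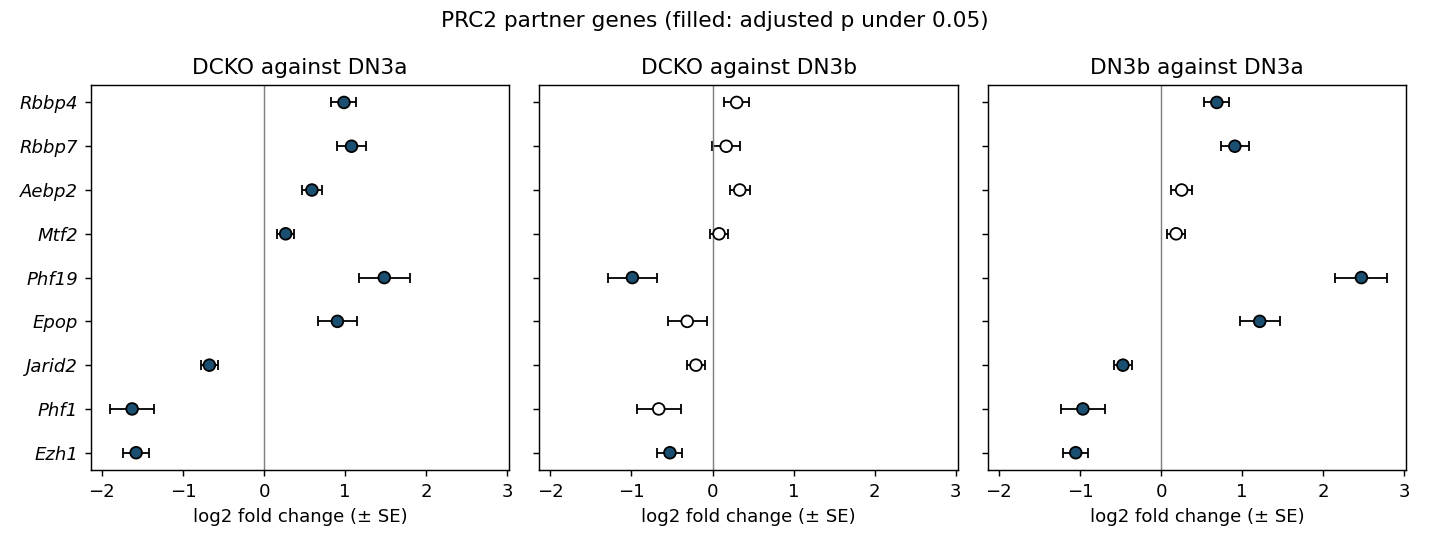
Log2 fold change with SE of 9 PRC2 partner genes in the 3 comparisons (horizontal axis, log2 scale), filled where the edgeR adjusted p was under 0.05. Ezh1, Phf1 and Jarid2 lie on the lower side and Rbbp4 and Rbbp7 on the higher side against DN3a, and Phf19 is above DN3a and below DN3b in DCKO.

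The KDM6 family was tested as 3 genes. Kdm6a and Kdm6b encode erasers of H3K27 methylation, and the Y-linked Uty a relative that need not share this activity. Kdm6b and Uty fell and none rose in DCKO against DN3a. Kdm6a rose in DCKO against DN3b, and Kdm6a and Uty fell in DN3b against DN3a. With the replicate number as a block, which pairs the control libraries, Kdm6b was also called lower in DN3b against DN3a (-0.34, edgeR adjusted p = 0.022). The call of the Kdm6b fall of 0.55 (SE 0.22; edgeR adjusted p = 0.048) in DCKO against DN3a was lost without DCKO library 1, 2 or 3 (0.11, 0.088 and 0.060) and without DN3a library 1, 3 or 4 (0.13, 0.095 and 0.052). Kdm6a, a demethylase of lysine 27, was 102 ± 9.97 CPM in DCKO, 80.0 ± 3.10 in DN3b and 109 ± 9.35 in DN3a (SD, n = 4). It fell by 0.45 (SE 0.09) in DN3b against DN3a (edgeR adjusted p = 0.00155) and was 0.35 ± 0.09 higher in DCKO than in DN3b (edgeR adjusted p = 0.020). The call against DN3b was lost without DCKO library 1, 2 or 3 (edgeR adjusted p = 0.062, 0.076 and 0.071) and without DN3b library 2 or 3 (0.052 and 0.065).

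PRC1, which ubiquitinates histone H2A and in some of its forms binds methylated lysine 27, had 23 tested genes. In DCKO against DN3a 10 rose and 3 fell (median 0.20; 10 to 11 rose and 3 to 5 fell with single libraries left out, and 7 rose and 7 fell with upper quartile scaling), in DCKO against DN3b Pcgf3, Pcgf5 and Rybp rose and Cbx7, Ring1 and Phc2 fell (median 0.03; 1 to 4 rose and 1 to 3 fell when single libraries were left out), and in DN3b against DN3a 7 rose and 3 fell (median 0.06; 5 to 7 and 1 to 4 with single libraries left out). The shares of all genes called in these 3 comparisons were 60.2%, 18.9% and 52.6%. Pcgf3, a RING finger subunit of a variant PRC1, was 135, 139, 138 and 116 CPM in DCKO, 69.96, 68.3, 64.8 and 70.8 CPM in DN3b and 81.3, 78.8, 76.1 and 75.6 CPM in DN3a. Every DCKO library exceeded every control library. Pcgf3 rose by 0.94 ± 0.08 in DCKO against DN3b and by 0.76 ± 0.08 in DCKO against DN3a (edgeR adjusted p = 1.2e-05 and 1.1e-05). Cbx2, a chromodomain reader, was 78.2 ± 12.54 CPM in DCKO, 79.3 ± 8.76 in DN3b and 33.3 ± 5.10 in DN3a, and rose by 1.23 ± 0.14 in DCKO against DN3a (edgeR adjusted p = 1.6e-05). Phc3, a polyhomeotic subunit, fell by 1.43 (SE 0.16) in the same comparison (edgeR adjusted p = 1.3e-05).

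A list of 10 tested genes held readers of methylated DNA and relatives of them, such as Mbd3, that need not bind it. Of these, 5 fell and none rose in DCKO against DN3a (median -0.33). In DN3b against DN3a 4 fell and 1, Mbd3, rose (median -0.22). None was called by edgeR in DCKO against DN3b (median -0.14), where 6 had an unadjusted p under 0.05, DESeq2 called 3 and limma none. Zbtb4, a zinc finger protein that binds methylated CpG, was 4.01 ± 1.59 CPM in DCKO, 7.74 ± 3.86 in DN3b and 25.7 ± 6.95 in DN3a (SD, n = 4), and fell by 2.68 (SE 0.38) in DCKO against DN3a (edgeR adjusted p = 7.0e-05). In the same comparison Zbtb38, of the same family, fell by 1.15 (SE 0.11) (edgeR adjusted p = 4.9e-06). With single libraries left out 5 fell in each case, and under the other settings 4 to 6 fell. Mbd3, a methyl-CpG binding domain protein of the NuRD complex, was 0.60 ± 0.27 higher in DCKO than in DN3a without a call (edgeR adjusted p = 0.074), and was called higher without DCKO library 1 (0.75, edgeR adjusted p = 0.029), without DN3a library 1 (0.79, 0.029) and without both DCKO library 1 and library 2 (0.85, 0.035). Against DN3b 0 to 1 gene of this list was called higher and 0 to 2 lower in DCKO with single libraries left out.

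Downstream of TET oxidation, thymine DNA glycosylase (Tdg) excises the oxidised bases and base excision repair fills the gap. Of 11 tested genes of these steps 7 rose and 2 fell in DCKO against DN3a (median 0.59), Tdg and Gadd45b rose in DCKO against DN3b (median 0.15; 0 to 3 rose with single libraries left out), and 6 rose and 4 fell in DN3b against DN3a (median 0.72). Tdg was 97.1 ± 4.74 CPM in DCKO, 73.3 ± 9.33 in DN3b and 44.6 ± 4.83 in DN3a, and rose by 1.12 ± 0.11 in DCKO against DN3a (edgeR adjusted p = 6.7e-06), where Tet1 and Tet2 fell. Ung, the uracil glycosylase, rose by 1.52 ± 0.14 in DCKO against DN3a (edgeR adjusted p = 5.6e-06).

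The supply of substrates was followed through 2 lists. Of 12 tested genes of the methyl donor cycle, which makes S-adenosylmethionine for all methyltransferases, 7 rose and 1 fell in DCKO against DN3a (median 0.47), only Mat2a, which makes S-adenosylmethionine, rose in DCKO against DN3b (median -0.08; 0 to 1 with single libraries left out), and 6 rose and 1 fell in DN3b against DN3a (median 0.42; 0 to 2 fell with single libraries left out). Ahcy, which removes the inhibitory product S-adenosylhomocysteine, was 138 ± 13.7 CPM in DCKO, 175 ± 25.5 in DN3b and 56.7 ± 8.15 in DN3a, and rose by 1.29 ± 0.13 in DCKO against DN3a (edgeR adjusted p = 8.6e-06). Of 11 tested genes of 2-oxoglutarate metabolism, which serves the TET and KDM6 dioxygenases, 8 rose and 1 fell in DCKO against DN3a (median 0.58), Idh1 rose in DCKO against DN3b (median 0.15), and 7 rose and 2 fell in DN3b against DN3a (median 0.41). Of 6 methyltransferases of histone H3 lysine 9, 3 rose in DCKO against DN3a and 3 in DN3b against DN3a (median 0.40 and 0.42), and Setdb2 rose and Ehmt2 fell in DCKO against DN3b (median 0.07; 0 or 1 of each with single libraries left out). Suv39h1 among them rose by 0.91 ± 0.11 in DCKO against DN3a (edgeR adjusted p = 2.2e-05). Of all genes, 60.2% were called in DCKO against DN3a, 52.6% in DN3b against DN3a and 18.9% in DCKO against DN3b.

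Genes of the cell cycle moved with the members that rose. All 23 tested S phase genes and all 17 tested G2 and M phase genes rose in DCKO against DN3a (median 1.42 and 2.30) and in DN3b against DN3a (median 1.48 and 2.10), whereas Cdc6 alone of the 23 and none of the 17 was called by edgeR in DCKO against DN3b (median 0.06 and 0.14; 0 to 2 of 23 and 0 to 1 of 17 over all settings). No G2 and M phase gene had an unadjusted p under 0.05 there, and DESeq2 and limma called none. The mean log2 CPM of the S phase list was 8.18, 8.06, 8.12 and 8.11 in DCKO, 7.57, 7.96, 8.07 and 8.23 in DN3b, and 6.11, 6.36, 6.61 and 6.91 in DN3a. Library 1 was lowest within each control group, as it was for Ezh2, Eed and Suz12 in both. In DN3a it had the highest Uhrf1 of the group, at 836 CPM.

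Set against the S phase list in the same library, Dnmt1, Uhrf1 and Ezh2 were lower in DCKO than in DN3a by 0.48, 0.90 and 0.62 on the log2 ratio scale, with no overlap (exact permutation p = 0.029, adjusted 0.086, for each). In DN3b against DN3a the differences were -0.19, -0.79 and -0.70 (exact permutation p = 0.11, 0.057 and 0.029, adjusted 0.18, 0.12 and 0.086). In DCKO against DN3b they were -0.28, -0.11 and 0.08 (exact permutation p = 0.057, 0.43 and 0.71). The permutation tests do not use the pairing of same-numbered control libraries, described below. In every such pair the ratios of Dnmt1, Uhrf1 and Ezh2 to the S phase list were lower in DN3b than in DN3a.

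**Figure D5:**
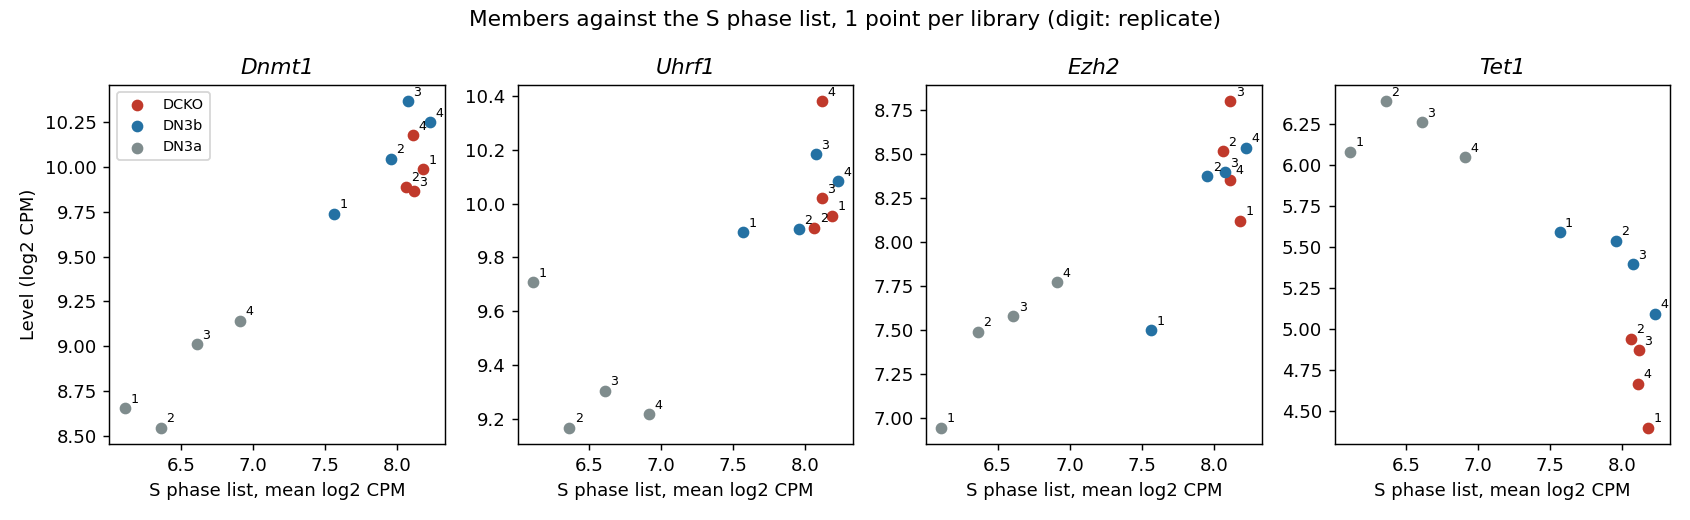
Level of 4 members (vertical axis, log2 CPM) against the mean log2 CPM of the S phase list (horizontal axis), 1 point per library, with the replicate number beside it. Library 1 of DN3b lies low on both axes for Ezh2, DN3a library 1 is high for Uhrf1 at the lowest S phase value of 6.11, and DCKO lies below DN3b for Tet1.

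Divided by the length of the principal transcript in kilobases, levels can be set between genes. In DCKO the order of CPM per kilobase was Uhrf1 (302 ± 47.4), Dnmt1 (189 ± 19.1), Ezh2 (127 ± 25.4), Suz12 (78.3 ± 11.1), Eed (45.5 ± 3.26), Dnmt3a (16.6 ± 2.60), Dnmt3b (15.6 ± 1.81), Tet3 (7.44 ± 1.98), Tet2 (2.65 ± 0.28) and Tet1 (1.85 ± 0.30) (SD, n = 4). Only Dnmt3a and Dnmt3b overlapped among these neighbours. In DN3b Uhrf1 (290 ± 28.5) and Dnmt1 (207 ± 37.9) again stood first, and Tet1 (2.97 ± 0.44) stood above Tet2 (2.39 ± 0.54) with overlap. There Ezh2 overlapped Suz12, Suz12 overlapped Eed and Dnmt3b overlapped Dnmt3a. In DN3a the order was Uhrf1 (184 ± 33.5), Dnmt1 (86.5 ± 16.9), Ezh2 (64.0 ± 14.4), Suz12 (37.8 ± 6.37) and Eed (28.3 ± 3.91), and Tet2 (5.30 ± 0.17) and Tet1 (5.12 ± 0.57) overlapped at the low end. Below Uhrf1 the DN3a neighbours from Dnmt1 through Ezh2, Suz12, Eed and Dnmt3b to Dnmt3a each overlapped the next. The order of Ezh2 and Suz12 turned round in all groups when merged exons were used as the length, that of Tet1 and Tet2 in DCKO and DN3a, that of Dnmt3a and Dnmt3b in DCKO, and that of Eed and Dnmt3b in DN3a.

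By the correlation of log2 CPM over the 12 libraries, which share the 3 groups and are a description only, the nearest of 8517 genes to Dnmt1 were Cenps (Pearson r = 0.993), Chaf1a (0.991) and Poc1a (0.991). Those nearest to Ezh2 were Nsd2 (0.992), Hnrnpa1 and Nup160, to Suz12 Usp1 (0.994) and Scaf11, and to Eed Haus1 (0.990), Anp32a and Bccip. Uhrf1 was nearest to Ddx39b (0.973), Elmo2 and Maz. Tet1 was nearest to Ick (0.993), Sfmbt2 (0.985) and Macf1, and Tet2 to Gbp7 (0.996), Lpp and Dtx3l. The 3 members that no comparison called had lower best values, Rhog with Dnmt3a (0.928), Ptpn7 with Dnmt3b (0.903) and Zfp362 with Tet3 (0.913).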

How the data were processed

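Total RNA of 12 sorted samples was sequenced as stranded libraries after ribosomal RNA removal, per the labels' protocols. Per the submitters' processing notes, reads were handled with TopHat2 2.0.12, HTSeq, Trim Galore and DESeq2 1.6.3 on build GRCm38. Neither the strand setting of the counting nor the annotation release is given there, and reads of overlapping or antisense genes may be mixed. The authors deposited raw counts per Ensembl gene, from which all levels and tests were computed. The authors' deposited DESeq2 tables hold a log2 fold change and an adjusted p-value per gene and were used only for the counts of members beside the fit.

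Of 43629 genes 42462 matched a symbol in GENCODE M21 (GRCm38), as did all 10 members. Genes passing filterByExpr (count minimum 10) were fitted with edgeR 4.0.16 (R 4.3.3), TMM scaling and group as the only term over 12 libraries (9 residual degrees of freedom), two-sided, with 0.05 as the threshold. The SE is the log2 fold change divided by the square root of F. Alternatives used DESeq2 1.42.0, limma 3.58.1 (voom), other scalings, filters and gene sets, fewer libraries, and a replicate block. No pair of replicates was alike within counting noise. The edgeR fit was tested on simulated data with known fold changes. Ratios used counts plus 0.5.

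Same-numbered DN3b and DN3a libraries deviated together (correlations 0.35 to 0.56), so the numbers pair the control groups; the labels do not state a shared mouse. DCKO numbers did not pair with either (-0.26 to 0.12).

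Members and lists were chosen with earlier results of these data known. Named genes were all members, the targeted genes, list genes by smallest adjusted p or highest level, and the 3 genes most correlated with a member among genes with mean log2 CPM of at least 3. List genes named because a count was small, or because a call depended on the setting, were chosen after their values were seen. One list gene was left out of its list and is not reported here. Counting error is small at this depth, and PCR copies are not separated from molecules.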

Additional observations from a re-analysis of the deposited data

Results flagged for a closer look

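Groups of 4 libraries were screened for a library far from the others by Dixon's ratio (gap to the nearest library over the group's range, against its 95% critical value) over 60 groups of values, of which chance alone would flag about 1 in 20. In DN3b the log2 ratio of Ezh2 to Eed counts was 1.33 in library 1 and 1.72, 1.75 and 1.72 in libraries 2 to 4, a Dixon ratio of 0.925. In DN3b the log2 ratio of Uhrf1 to Dnmt1 counts was 0.15 in library 1 and -0.14, -0.18 and -0.17 in libraries 2 to 4, a Dixon ratio of 0.875. DN3b library 1 also had the lowest Dnmt1, Ezh2, Eed and Suz12 of its group and the lowest S phase value, 7.57 against 7.96 to 8.23 in the other DN3b libraries. The part of the S phase level in these ratios was not tested.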

How the results depend on the processing

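The number of members called stayed at 7 to 9 in DCKO against DN3a, at 1 in DCKO against DN3b and at 7 to 8 in DN3b against DN3a over all 22 alternatives of each comparison, and at 7 to 8, 1 and 7 with single libraries left out. No called member lost its call or changed sign under any alternative. Of the values that were not called, 5 changed sign in 2 or 3 of 22 alternatives, with values of -0.23 to 0.19: Dnmt3a in DCKO against DN3a, Dnmt3b in DN3b against DN3a, and Uhrf1, Eed and Tet3 in DCKO against DN3b. Of 660 single values of members, 12 gained a call. They are Tet3 in DN3b against DN3a with the replicate block, Tet3 in DCKO against DN3a with upper quartile scaling, and Dnmt3b in DCKO against DN3a, at -0.54 to -0.35, under upper quartile scaling, a stricter filter (adjusted p = 0.030), protein-coding genes alone (0.023), only the 8 libraries compared (0.044), without both DCKO library 1 and library 2 (0.040) and 5 single left-out libraries. With the replicate block 7, 1 and 8 members were called in DCKO against DN3a, DCKO against DN3b and DN3b against DN3a, and 7648, 1062 and 9233 of all genes (8391, 2635 and 7334 without it). Without DCKO libraries 1 and 2, 950 genes were called in DCKO against DN3b, and without single libraries 1601 to 3249. Exact permutation tests of the ratios with a library left out cannot pass the threshold, and exact sign-flip tests of same-numbered pairs cannot go below p = 0.125. None of the 300 alternative ratio values passed 0.05, with the sign-flip p-values unadjusted and the others adjusted. Among them only the values formed with a larger added count could have passed.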
